A study of Homo sapiens with 6 samples.

Results

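The 9 genes described here encode secreted factors that act on blood vessels and their cells, and the neuropilins that help to receive them. They are 7 ligands (VEGFB, VEGFC, PGF, PDGFA, PDGFB, EDN1 and ANGPT1) and 2 coreceptors (NRP1 and NRP2). They were taken by gene name from the deposited expression table, which holds 58825 genes, and each name matched 1 row. RNA-seq of poly(A) RNA was performed in HK-2 cells, an immortalized line of human kidney tubular epithelial cells. There were 3 Control libraries and 3 libraries of cells stimulated with 25 μg/ml OX-LDL, which is low-density lipoprotein that has been oxidized, for 48 h. All 6 libraries come from the same cell line, and no batch is named. The study's methods describe serum starvation of HK-2 cells before OX-LDL, but do not say whether the Control cells of these libraries were starved or how long they were kept. The comparison asks how the messages for these vascular factors differ between OX-LDL-treated and Control tubular cells. Because RNA came from whole cultures, fewer cells of a type and less RNA per cell cannot be told apart.

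Vascular endothelial growth factors and placental growth factor are dimeric ligands of receptor tyrosine kinases on endothelium, and VEGFC acts mainly on lymphatic vessels through FLT4. Platelet-derived growth factors recruit pericytes and fibroblasts, angiopoietin-1 stabilizes vessels through the receptor TEK, and endothelin-1 is a potent vasoconstrictor peptide. Neuropilins are transmembrane coreceptors that bind both class 3 semaphorins, together with plexins, and VEGF family ligands. In the kidney, tubular epithelial cells release such factors toward the neighbouring peritubular capillaries and fibroblasts.

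For each gene and library, the table lists a read count and its FPKM, the fragments per kilobase of transcript corrected for library size. Total counts were 69334049 to 75701068 in Control and 62561347 to 76797607 in OX-LDL. About 4 counts stood for 1 read pair, since the number of genes with exactly 4 counts was 3.26 times that at the counts on either side. Genes that never exceeded 12 counts, or 3 read pairs, in any library were therefore taken as not detected, a limit that covers counting error only. The counts of the 19510 genes whose mean reached 0.1 FPKM were compared by the quasi-likelihood test of edgeR, with Benjamini-Hochberg adjustment over the full set. Levels below are FPKM, and changes are fitted log2 fold changes of OX-LDL over Control with a standard error (SE) and n = 3 per group. The labels do not say that the 3 libraries of a group came from separate cultures, so the p-values measure the spread between these libraries, which may be technical.

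The epithelial label was checked against marker genes. KRT8 and KRT18, keratins of simple epithelia, lay between 30.9 and 78.8 FPKM in the 6 libraries, and PAX8, a transcription factor of renal epithelium, between 16.3 and 58.0 FPKM. Of the 12 tubular markers examined, 7 could be tested, of which 4 (KRT8, KRT19, CDH6 and CDH2) rose and PAX8 fell with OX-LDL. Over all genes tested, 7.91% rose and 7.42% fell. The part of these marker changes in the results below was not tested. Markers of the mature proximal tubule were mostly low. LRP2 (megalin) had 0 counts in each library, and ANPEP, CUBN, AQP1 and SLC34A1 reached at most 0.142 FPKM in any library. GGT1, a brush-border enzyme whose name occurs on 2 rows of the table, was the exception, at 3.13, 18.2 and 3.88 FPKM in Control and 15.8, 17.7 and 16.1 FPKM under OX-LDL on the row ENSG00000100031, which overlaps the other. Of 10 endothelial markers, 8 (PECAM1, CDH5, VWF, KDR, TEK, TIE1, CLDN5 and EMCN) summed to 0.0547 to 0.146 FPKM in Control and 0.0493 to 0.138 FPKM under OX-LDL. The remaining pair, ESAM and ERG, brought the whole list to 1.57 to 2.92 FPKM in Control and 1.66 to 3.15 FPKM under OX-LDL, and neither passed the test. The 8 markers of mural cells and fibroblasts summed to 69.6 to 104 FPKM in Control and 49.9 to 76.7 FPKM under OX-LDL, nearly all of it from RGS5 and LUM, and none of the 3 that could be tested passed. PDGFRB, the pericyte receptor for PDGFB, did not exceed 0.05 FPKM in any library.

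Sequences upstream of the start sites were read from RefSeq promoter windows on GRCh38.p14, which matched 6 of the 9 genes with 12 windows. NRP1, PDGFB and ANGPT1 were without a window. The 250 bases before the start are shown for NRP2, the gene with the largest change among the 9. For contrast, they are shown for VEGFC and EDN1, which did not pass the test. The RefSeq start of VEGFC and EDN1 is the upstream end of the gene in the authors' table. Capitals mark the motifs GGGCGG (GC box), ACGTG (core of the hypoxia response element) and TGANTCA (AP-1 site) on either strand. The stretches are chr2:205682251-205682500 on the plus strand for NRP2, chr4:176792923-176793172 on the minus strand for VEGFC and chr6:12290111-12290360 on the plus strand for EDN1.
NRP2: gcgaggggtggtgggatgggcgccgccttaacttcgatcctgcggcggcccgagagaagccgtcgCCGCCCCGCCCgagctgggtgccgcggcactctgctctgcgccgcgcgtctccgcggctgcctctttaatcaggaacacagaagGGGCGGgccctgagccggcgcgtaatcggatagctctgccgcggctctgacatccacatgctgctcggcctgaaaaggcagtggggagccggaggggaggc
VEGFC: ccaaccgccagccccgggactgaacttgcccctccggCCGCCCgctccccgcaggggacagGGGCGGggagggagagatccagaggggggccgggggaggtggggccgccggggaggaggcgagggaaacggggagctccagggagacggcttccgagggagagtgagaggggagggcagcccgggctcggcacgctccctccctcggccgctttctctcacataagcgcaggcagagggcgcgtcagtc
EDN1: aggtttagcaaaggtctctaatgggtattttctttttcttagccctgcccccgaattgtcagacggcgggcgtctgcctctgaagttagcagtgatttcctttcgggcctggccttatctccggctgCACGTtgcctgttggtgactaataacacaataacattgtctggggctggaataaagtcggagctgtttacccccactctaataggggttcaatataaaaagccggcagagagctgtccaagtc
The NRP2 window held 3 GC boxes, 2 of which overlap by a base, and no other motif. The VEGFC window held 2 GC boxes. The EDN1 window held no GC box and 1 hypoxia response element core, which lies on the opposite strand and reads CACGT here. Over all 12 windows, which overlap within PGF, a GC box was present in 10, where 42.6% of the 35116 windows of all genes hold one. The hypoxia response element core was present in 2 windows, both of EDN1, where 18.5% of all windows hold it, and the AP-1 motif in 0, where 6.57% hold it. The GC content was 70.0% in the NRP2 window, 74.0% in the VEGFC window and 49.2% in the EDN1 window shown, with a median of 58% over all windows. It was 68.8% to 82.8% in the windows of the genes other than EDN1 and 42.8% to 54.0% in those of EDN1. The share of windows with a GC box was not corrected for GC content. Windows of the same gene, such as the 4 of PDGFA, were counted separately. The NRP2 start in RefSeq lies 511 bases inside the gene of the authors' table. A match of letters is a description and does not show a working site.

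Of the 9 genes, 8 could be tested, and the exception was ANGPT1, the ligand of TEK. Both neuropilins rose under OX-LDL and none of the 6 tested ligands changed past the threshold. The 2 of 8 stand beside 15.3% of all genes tested that had an adjusted p-value under 0.05 by edgeR, where 7.91% were higher and 7.42% lower in OX-LDL. The study's rule for differentially expressed genes (DEGs) was a fold change above 2 or below 0.5 with a p-value under 0.05. Its methods speak of adjusted p-values, but the p-value of this rule was read here as unadjusted. On that reading NRP2 alone was a DEG, beside 6.36% of all genes (3.19% higher and 3.16% lower). In FPKM the groups did not overlap for 4 of the 8 genes (NRP1, NRP2 and PDGFA higher, VEGFB lower), beside 37.2% of all genes (16.8% higher and 20.5% lower). The median log2 fold change of the 8 was 0.42, with 7 genes above 0 and 1 below, whereas the median of all genes tested was -0.0043.

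**Figure D1:**
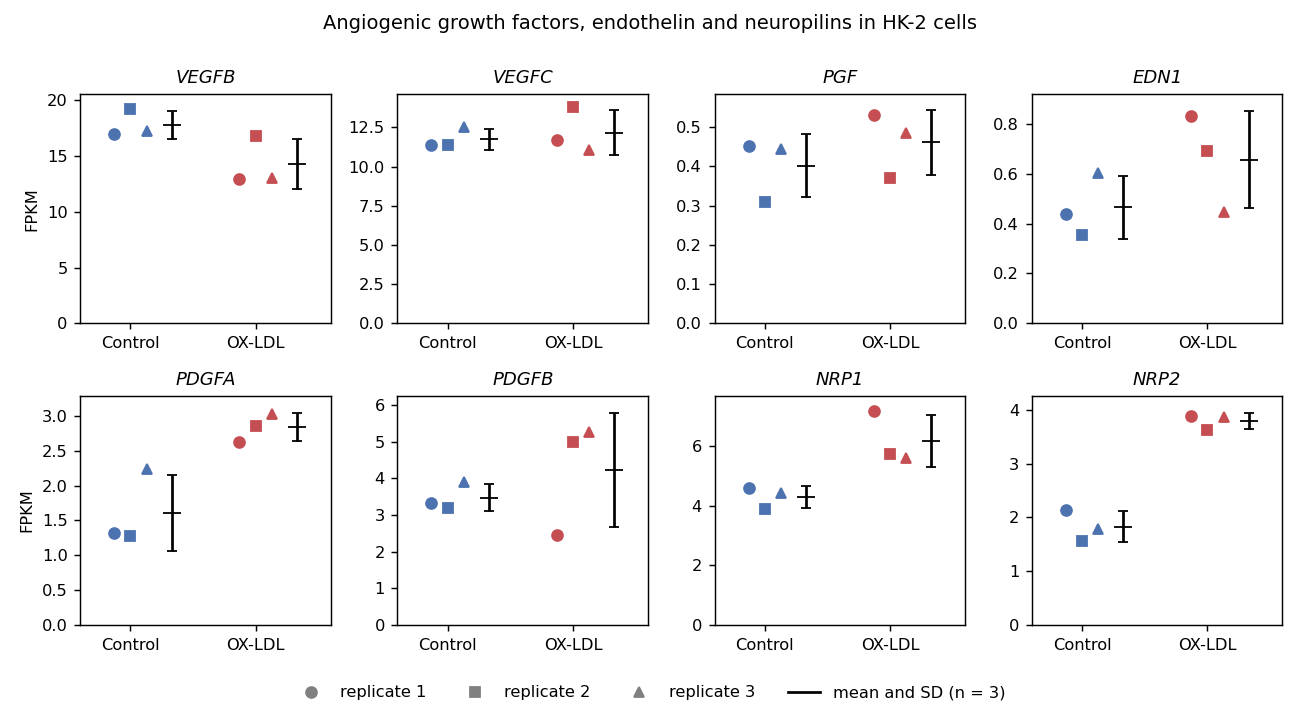
FPKM (vertical axes, each starting at 0) of the 8 detected genes in each of the 3 Control and 3 OX-LDL libraries, with 1 symbol for each replicate number, which does not pair the libraries. Black bars are the mean and SD. For NRP1, NRP2 and PDGFA all 3 OX-LDL points lie above all 3 Control points, and OX-LDL replicate 1 of PDGFB lies below the Control libraries.

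NRP2 (ENSG00000118257; GRCh38 chromosome 2, 205681990 to 205798133, plus strand), a coreceptor for VEGFC and for SEMA3F, showed the largest change of the 9. Its level was 2.14, 1.56 and 1.78 FPKM in Control and 3.89, 3.62 and 3.87 FPKM under OX-LDL. The groups were well apart, and the 3 OX-LDL libraries lay close together, with an SD of 0.150 FPKM against 0.290 FPKM in Control. NRP2 rose 2.12-fold (95% interval 1.70 to 2.62), a log2 fold change of 1.08 (SE 0.13, adjusted p = 0.00478 by edgeR). The adjusted p-value stayed under 0.05 in each of the 14 other ways of processing that were run. In limma on log2(FPKM + 1), its log2 fold change of 0.77 was under the 2-fold limit for a DEG, as was that of 0.97 without Control replicate 2. NRP2 overlaps 1 annotated gene (AC007362.1) on the other strand.

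NRP1 (ENSG00000099250; chromosome 10, 33177492 to 33336262, minus strand), which binds SEMA3A and VEGF ligands, was at 4.60, 3.89 and 4.43 FPKM in Control and 7.17, 5.73 and 5.60 FPKM under OX-LDL. The lowest OX-LDL library was above the highest Control library, and OX-LDL replicate 1 was the highest of the 6. NRP1 rose 1.46-fold (95% interval 1.20 to 1.79), a log2 fold change of 0.55 (SE 0.12, adjusted p = 0.0286 by edgeR). This call was lost when 1 library was left out, in 5 of 6 cases. With edgeR, omitting Control replicate 1 gave an adjusted p-value of 0.0514, omitting Control replicate 2 gave 0.0931, omitting Control replicate 3 gave 0.0678, omitting OX-LDL replicate 1 gave 0.0685 and omitting OX-LDL replicate 3 gave 0.0578, with a log2 fold change between 0.43 and 0.61. NRP1 overlaps a small RNA pseudogene (RN7SL398P) on its own strand, from which its reads may not be told apart, and AL121748.2 on the other.

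The balance between the neuropilins was compared within libraries. In FPKM, the ratio of NRP2 to NRP1 was 0.465, 0.402 and 0.403 in Control and 0.543, 0.631 and 0.690 in OX-LDL. NRP1 therefore remained the more abundant neuropilin per length in each library, and the ratios of the groups did not overlap. The two-sided exact permutation test gave p = 0.1, which is the smallest that 3 against 3 libraries allow (adjusted p = 0.15 over 3 ratios tested this way).

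Among the 7 ligands, VEGFB (ENSG00000173511; chromosome 11, 64234538 to 64238793, plus strand), a ligand of FLT1 and NRP1, had the highest mean FPKM. It was at 16.9, 19.2 and 17.2 FPKM in Control and 12.9, 16.8 and 13.0 FPKM under OX-LDL. All 3 OX-LDL libraries were lower, but OX-LDL replicate 2 came within the distance of the Control libraries from each other. The log2 fold change was -0.29 (SE 0.13, 95% interval -0.60 to 0.02), and the adjusted p-value of 0.194 by edgeR missed the threshold. Without OX-LDL replicate 2, the adjusted p-value was 0.0390 and the log2 fold change -0.42. VEGFB overlaps no annotated gene.

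VEGFC (ENSG00000150630; chromosome 4, 176683538 to 176792922, minus strand), the lymphatic growth factor, was at 11.4, 11.4 and 12.5 FPKM in Control and 11.7, 13.8 and 11.0 FPKM under OX-LDL. Its groups overlapped, with both the highest and the lowest library in OX-LDL. The log2 fold change was 0.08 (SE 0.11, adjusted p = 0.670 by edgeR), and its 95% interval in folds ran from 0.884 to 1.27. The ratio of VEGFC to VEGFB was 0.672, 0.592 and 0.727 in Control and 0.904, 0.820 and 0.849 in OX-LDL, without overlap (two-sided exact permutation p = 0.1, the smallest possible, and adjusted p = 0.15). In OX-LDL the FPKM ranges of the 2 ligands overlapped across libraries, but VEGFB was the higher in FPKM within each library. By counts, VEGFC was the higher within each library.

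PGF (ENSG00000119630; chromosome 14, 74941834 to 74955626, minus strand), a ligand of FLT1, had the lowest mean FPKM of the detected genes in both groups, although EDN1 had fewer counts. Its counts were 233, 162 and 213 in Control and 228, 197 and 259 in OX-LDL, or 0.309 to 0.451 and 0.369 to 0.530 FPKM. The groups overlapped. The 95% interval of the fold, 0.777 to 1.76, left room for a change in either direction (adjusted p = 0.602 by edgeR).

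PDGFA (ENSG00000197461; chromosome 7, 497258 to 520208, minus strand), which signals through PDGFRA, was at 1.32, 1.27 and 2.24 FPKM in Control and 2.63, 2.86 and 3.02 FPKM under OX-LDL. The groups did not overlap, but Control replicate 3 lay nearer to the OX-LDL libraries than to the other Control libraries. The log2 fold change of 0.85 (SE 0.24, 95% interval 0.29 to 1.41) had an unadjusted p-value of 0.00932 and an adjusted p-value of 0.0564 by edgeR. This result stood close to the threshold. The adjusted p-value was 0.00472 in DESeq2, 0.0414 with a minimum of 1 FPKM, 0.0497 with the counts divided by 4 and 0.0127 without Control replicate 3, where the log2 fold change was 1.16. In the other 10 ways of processing it ranged from 0.0512 to 0.159.

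PDGFB (ENSG00000100311; chromosome 22, 39223359 to 39244751, minus strand), the paralog that recruits pericytes through PDGFRB, divided the OX-LDL libraries. It was at 3.34, 3.18 and 3.89 FPKM in Control. In OX-LDL it was at 2.45 FPKM in replicate 1, below every Control library, and at 5.00 and 5.25 FPKM in replicates 2 and 3, above every Control library. The SD was 1.55 FPKM under OX-LDL against 0.371 FPKM in Control, and the log2 fold change was 0.32 (SE 0.29, adjusted p = 0.509 by edgeR). Without OX-LDL replicate 1, the log2 fold change was 0.60 and the adjusted p-value 0.0608. OX-LDL replicate 1 was also the library with the fewest counts (62561347), and the part of depth in this value was not tested. The same library was the highest of the 6 for NRP1, NRP2, PGF and EDN1. The ratio of PDGFB to PDGFA was 2.53, 2.50 and 1.74 in Control and 0.929, 1.75 and 1.74 in OX-LDL, so the groups overlapped (two-sided exact permutation p = 0.2).

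EDN1 (ENSG00000078401; chromosome 6, 12290361 to 12297194, plus strand), the precursor of endothelin-1, was also low. Its counts were 79, 65 and 100 in Control and 125, 128 and 83 in OX-LDL, or 0.439, 0.353 and 0.603 FPKM against 0.829, 0.691 and 0.447 FPKM. OX-LDL replicate 3 lay within the Control range. The log2 fold change of 0.52 (SE 0.34, adjusted p = 0.361 by edgeR) had a 95% interval in folds from 0.820 to 2.51. A change of the size seen for NRP2 could therefore not be told from none.

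ANGPT1 (ENSG00000154188; chromosome 8, 107249482 to 107498055, minus strand) had 0 counts in each of the 6 libraries. A count of 0 allows up to 12 counts per library. No fold can be given.

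In order of mean FPKM, Control ran from VEGFB (17.8 ± 1.23) and VEGFC (11.8 ± 0.666) through NRP1 (4.31 ± 0.370), PDGFB (3.47 ± 0.371), NRP2 (1.83 ± 0.290) and PDGFA (1.61 ± 0.543) to EDN1 (0.465 ± 0.127) and PGF (0.402 ± 0.0806), each as mean ± SD with n = 3. The libraries of neighbours overlapped for NRP2 with PDGFA and for EDN1 with PGF, and not for the other pairs of detected genes. The order of the means in OX-LDL was the same, from VEGFB (14.2 ± 2.22) and VEGFC (12.2 ± 1.43) through NRP1 (6.17 ± 0.868), PDGFB (4.23 ± 1.55), NRP2 (3.79 ± 0.150) and PDGFA (2.84 ± 0.197) to EDN1 (0.656 ± 0.194) and PGF (0.461 ± 0.0829). There VEGFB overlapped with VEGFC, PDGFB with NRP2 and EDN1 with PGF. NRP2 no longer overlapped with PDGFA. The order between genes depends on the length by which FPKM divides, and it differs by counts. In Control, NRP1 had 4004 to 4658 counts, VEGFB 2169 to 2647 and VEGFC 2612 to 2666.

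**Figure D2:**
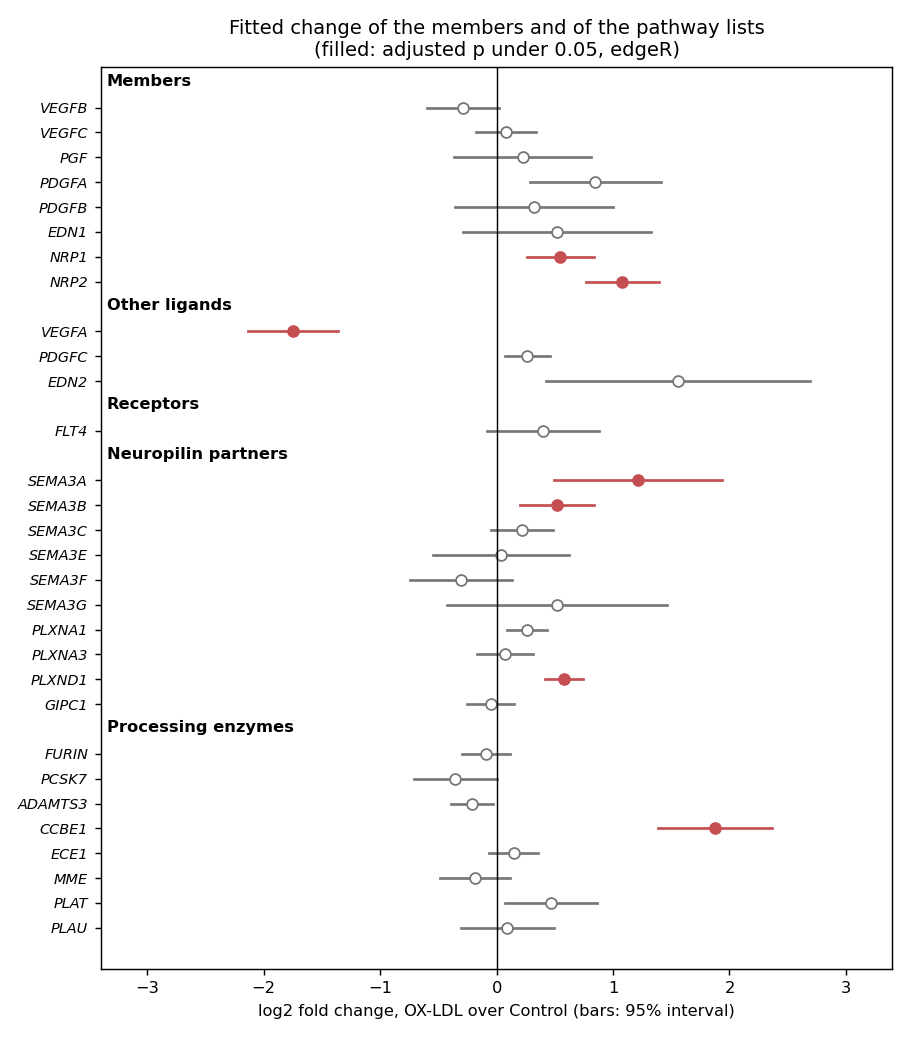
Fitted log2 fold change of OX-LDL over Control (horizontal axis) with its 95% interval for the 8 tested genes (top) and for the tested genes of 4 pathway lists. Filled red points had an adjusted p-value under 0.05 by edgeR. Among the 8, NRP1 and NRP2 are filled, and in the lists VEGFA lies to the left of 0 and SEMA3A, SEMA3B, PLXND1 and CCBE1 to the right.

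The ligands closest to the 9 genes were read as a list of 8 (VEGFA, VEGFD, PDGFC, PDGFD, ANGPT2, ANGPT4, EDN2 and EDN3), of which 3 could be tested. VEGFA, the main angiogenic member of the VEGF family, fell and was the only one past the threshold. It was at 19.5, 22.2 and 14.7 FPKM in Control and 5.81, 4.77 and 5.82 FPKM under OX-LDL. The groups were far apart, with a log2 fold change of -1.75 (SE 0.16, adjusted p = 0.00207 by edgeR). Within a library, the ratio of VEGFA to VEGFC in FPKM was 1.17 to 1.95 in Control and 0.346 to 0.528 in OX-LDL. In FPKM the highest VEGF ligand was VEGFA in Control replicates 1 and 2. It was VEGFB in Control replicate 3 and in each OX-LDL library. By counts, VEGFA was above both VEGFB and VEGFC in each library. In OX-LDL, VEGFA had 6201 to 7620 counts, VEGFB 1476 to 2359 and VEGFC 2257 to 3272. The order between these ligands therefore depends on the length by which FPKM divides, and no change of order is read from it. PDGFC (log2 fold change 0.26, adjusted p = 0.0722) and EDN2 (1.56, adjusted p = 0.0739), named here as the other tested genes of this list, missed the threshold by edgeR.

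The tyrosine kinase and endothelin receptors that the ligands bind were mostly undetected. Of 9 receptors (FLT1, KDR, FLT4, PDGFRA, PDGFRB, TEK, TIE1, EDNRA and EDNRB), 5 had at most 12 counts in each library, and 2 of these, FLT1 and EDNRB, had 0 counts in all of them. FLT4, the receptor of VEGFC and the only one over the minimum for the test, averaged 0.445 ± 0.101 FPKM (SD, n = 3) in Control and 0.574 ± 0.0484 FPKM (SD, n = 3) under OX-LDL, and its adjusted p-value was 0.244 by edgeR.

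Partners of the neuropilins were more abundant. Of 13 class 3 semaphorins, plexins and the neuropilin-binding adaptor GIPC1, 10 could be tested, 3 rose and 0 fell, with a median log2 fold change of 0.24, where 7.91% of all genes tested rose and 7.42% fell. PLXND1 (ENSG00000004399), a plexin that receives SEMA3E and, with neuropilins, other class 3 semaphorins, was at 8.78, 8.81 and 9.50 FPKM in Control and 13.4, 13.5 and 12.7 FPKM under OX-LDL. Its libraries lay close together within each group, with a log2 fold change of 0.58 (SE 0.07, adjusted p = 0.00459 by edgeR), and it stayed past the threshold in each of the 14 other ways of processing. SEMA3A, a ligand of NRP1, was scarce, and its counts were 131, 142 and 191 in Control and 420, 294 and 309 in OX-LDL. Its log2 fold change of 1.21 (SE 0.30) had an adjusted p-value of 0.0407 by edgeR. SEMA3B, a ligand of both neuropilins, was at 1.31 ± 0.0716 FPKM in Control and 1.84 ± 0.186 FPKM under OX-LDL, with a log2 fold change of 0.52 (SE 0.14, adjusted p = 0.0456 by edgeR). Both semaphorin calls were sensitive to single libraries. SEMA3B lost the threshold in each of the 6 cases, with adjusted p-values of 0.0623 to 0.144, and SEMA3A in 4 of 6, all but those without Control replicate 3 or OX-LDL replicate 2, with a highest value of 0.133. SEMA3C, the most abundant gene of the list, was at 50.6 ± 4.37 FPKM in Control and 57.6 ± 6.84 FPKM under OX-LDL and did not pass (adjusted p = 0.249 by edgeR), nor did GIPC1 (log2 fold change -0.05, adjusted p = 0.749). PLXNA1, a plexin that pairs with neuropilins and is named here after its values were seen, had a log2 fold change of 0.26 (SE 0.07) and an adjusted p-value of 0.0514 by edgeR, and it passed in 3 of the 14 other ways of processing.

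Many ligands of these families are made as precursors and cut by proteases, in the secretory pathway or outside the cell. Of 11 enzymes and cofactors of this processing, 8 could be tested, 1 rose and 0 fell, and the median log2 fold change was 0.0010. Beside these counts, 7.91% of all genes tested rose and 7.42% fell. The enzyme or cofactor that rose was CCBE1 (ENSG00000183287), a secreted cofactor for the cleavage of VEGFC by the protease ADAMTS3. It was at 2.02, 2.69 and 3.15 FPKM in Control and 11.6, 9.13 and 7.60 FPKM under OX-LDL. The lowest OX-LDL library was above the highest Control library, and the log2 fold change was 1.88 (SE 0.21, adjusted p = 0.00357 by edgeR). CCBE1 overlaps 4 annotated genes on the other strand. ADAMTS3 itself was at 15.8 ± 0.452 FPKM in Control and 13.4 ± 0.771 FPKM under OX-LDL, with a log2 fold change of -0.21 that missed the threshold (adjusted p = 0.117 by edgeR). ECE1, which releases endothelin-1 from its precursor, had a log2 fold change of 0.15 (adjusted p = 0.317), and PLAU, the urokinase that can activate growth factors through plasmin, had 0.09 (adjusted p = 0.764).

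**Figure D3:**
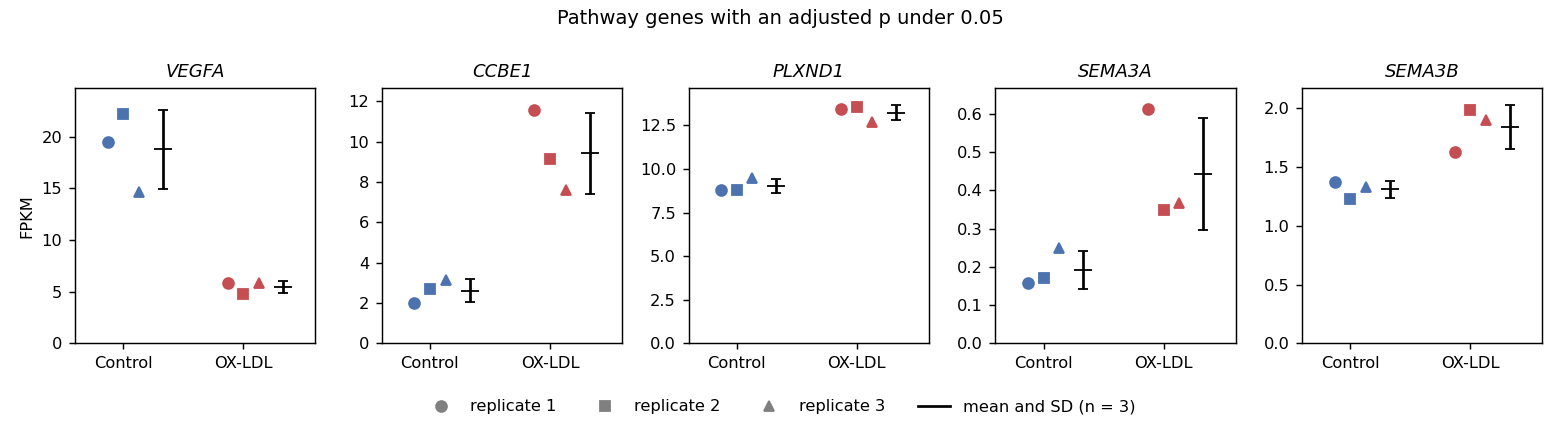
FPKM (vertical axes, each starting at 0) in each library of the 5 pathway genes with an adjusted p-value under 0.05 by edgeR, with the mean and SD as black bars. The OX-LDL points lie below all Control points for VEGFA and above them for CCBE1, PLXND1, SEMA3A and SEMA3B.

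Over the 4 lists together, 22 of 41 genes could be tested, 4 rose and 1 fell, which is 5 genes beside 15.3% of all genes tested. The median log2 fold change was 0.18.

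For the 6 of the 9 genes whose mean reached 1 FPKM (PGF, EDN1 and ANGPT1 did not), the variation over the 6 libraries was compared with that of the 12259 genes whose mean reached 1 FPKM by Pearson's r of log2(FPKM + 0.1), as a description in which the points share libraries and the 2 groups. The pattern of NRP2, lower in Control with replicate 2 the lowest, was shared most closely by ID1 (r = 0.9995), an inhibitor of helix-loop-helix transcription factors, PRDX6 (r = 0.9991), a peroxiredoxin, and RRM1 (r = 0.998), a ribonucleotide reductase subunit. In all, 552 genes had an r above 0.95 with NRP2. NRP1 was most like SRGAP2, SLC39A13 and HSD17B11 (r = 0.992 to 0.996), with 96 genes above 0.95. PDGFA was most like NAMPTP1, MBOAT1 and CYP27A1 (r = 0.992 to 0.996), with 139 genes above 0.95, and among the genes most like VEGFB were TMEM147 (r = 0.998) and EXOSC1 (r = 0.995), with 188. Few genes shared the split of the OX-LDL libraries seen in PDGFB. There were 6 genes above 0.95, led by PCDHGC3 (r = 0.977), NUDT16L1 (r = 0.974) and HGSNAT (r = 0.966). VEGFC had 18 such genes, led by RPL8 (r = 0.985), CCDC198 (r = 0.973) and DLG5 (r = 0.972).

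**Figure D4:**
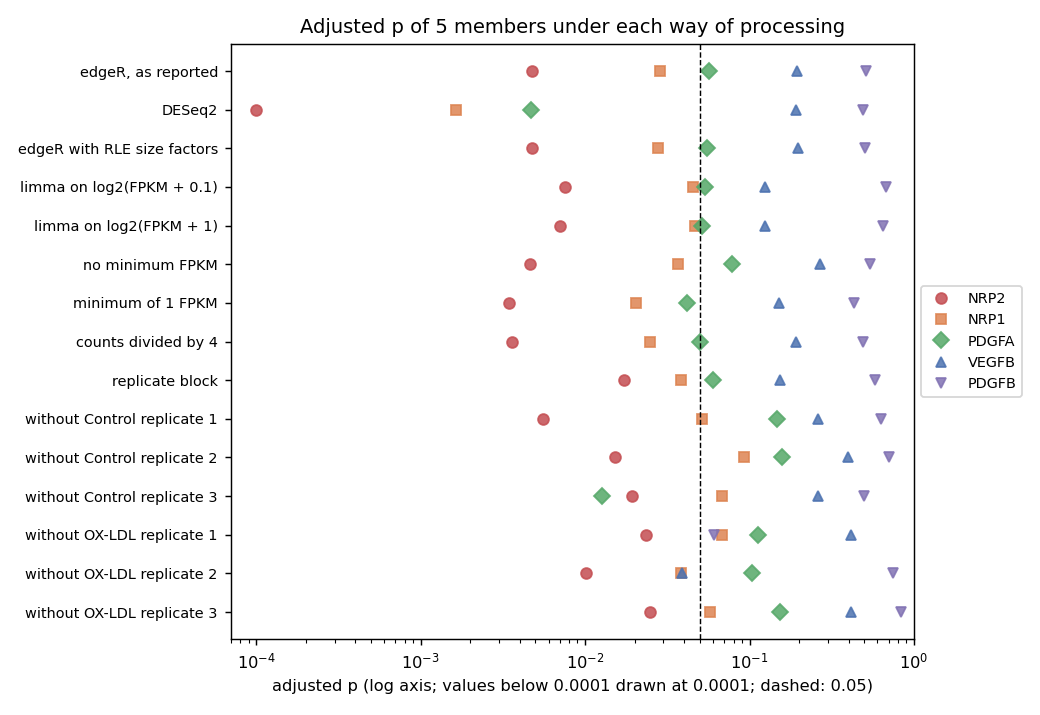
Adjusted p-value (horizontal log axis, dashed line at 0.05) of 5 of the 9 genes by edgeR as reported and under the 14 other ways of processing (rows), including each library left out in turn. NRP2 lies left of 0.05 in every row, NRP1 crosses it in 5 rows and PDGFA lies on either side of it.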

How the data were processed

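HK-2 cells were sequenced by RNA-seq in 6 libraries, 3 Control and 3 OX-LDL, grouped by the labels. The authors deposited 1 table of whole-number counts, not scaled for library size, and FPKM values, in which 0 counts are listed at 0.0001 FPKM. Per the labels, the submitters' processing notes name cutadapt (version 1.9), HISAT2 (version 2.0.4), StringTie (version 1.3.4d), edgeR, DESeq2 and GRCh38. Whether counting used the strand is not given in the sources used here, so overlapping genes are uncertain. Coordinates were the same for 81.3% of the 58552 identifiers that the table has in common with GENCODE release 29.

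Counts were fitted with TMM factors, glmQLFit and glmQLFTest in edgeR (version 4.0.16, R version 4.3.3), with the group as the only term. DESeq2 (version 1.42.0), limma (version 3.58.1), RLE size factors, other FPKM minima, counts divided by 4, a replicate block and leaving out each library were alternatives. Fits were tested on simulated data. No library duplicated another of its own group, with a chi-square per gene of at least 60.7 between them. Control libraries were not compared with OX-LDL libraries in this way.

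The genes, pathway lists, marker lists and motifs were chosen with earlier results of these data known. Named list genes were those with an adjusted p-value under 0.05, up to 6 per list, or a mean of at least 10 FPKM. FLT4, PDGFC, EDN2 and the marker genes' values are given for their role. For VEGFB, 1 of the 3 genes with the most similar pattern is not reported here.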

Additional observations from a re-analysis of the deposited data

How the results depend on the processing

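Over all genes tested, 2991 passed an adjusted p-value of 0.05 in edgeR, 4323 in DESeq2, 1636 with the replicate block and 1161 to 2943 with 1 library left out. The same-numbered Control and OX-LDL libraries deviated from their group means with correlations of -0.041, -0.0031 and 0.0356, so the numbers were not taken to pair them. The block ended the calls of SEMA3A (adjusted p = 0.0938) and SEMA3B (0.119) and no other call among the 9 genes and the pathway lists. The number of the 9 genes called was 2, and 1 to 3 with 1 library left out. It was 1 if the library left out was Control replicate 1 or 2, or replicate 1 or 3 of OX-LDL, and it was 3 without OX-LDL replicate 2. For the 4 pathway lists, 5 genes were called as reported. There were 8 in DESeq2, 3 in limma on log2(FPKM + 0.1), 3 without a minimum FPKM, 3 with the replicate block, and 3 to 5 with 1 library left out. SEMA3A and SEMA3B also missed the threshold in both limma fits and without a minimum FPKM. The direction reversed for VEGFC without OX-LDL replicate 2 (log2 fold changes with 1 library left out from -0.017 to 0.15), for GIPC1 without OX-LDL replicate 3 (from -0.12 to 0.0079) and for PLAU without Control replicate 1 (-0.018) or OX-LDL replicate 2 (from -0.065 to 0.23), none of which was called in any fit. The cause of these shifts was not tested. Counts were few for the low genes, such as EDN2 (13 to 87 counts a library), EDN1 (65 to 128) and PGF (162 to 259). The part of depth in their spread was not tested.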

Other observations

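Genes that the authors' table annotates with the GO term angiogenesis, a term chosen after the values had been seen, changed in both directions. Of 258 such genes, 182 were tested, 32 rose and 24 fell, 30.8% in all beside 15.3% of all genes tested in edgeR. Their median log2 fold change was 0.05. The share called depends on the level. In the edgeR fit with a minimum of 1 FPKM, 3152 of 12259 genes passed, a larger share than 15.3%. The genes of this term and of the terms below were not matched to all genes for level, so a difference between the shares was not tested. The term covers 7 of the 9 genes described above, so the groups are not separate. Among the genes that rose, ID1, a target of BMP signalling, averaged 23.4 ± 5.32 FPKM in Control (SD, n = 3) and 63.4 ± 3.38 FPKM (SD, n = 3) under OX-LDL, and its log2 fold change was 1.46 (SE 0.17, adjusted p = 0.00423 by edgeR). ENG, which encodes the TGF-β coreceptor endoglin, rose from 1.19 ± 0.176 to 2.63 ± 0.452 FPKM. Among those that fell, WARS, the cytosolic tryptophanyl-tRNA synthetase, averaged 56.1 ± 4.82 and 13.4 ± 0.654 FPKM, with a log2 fold change of -2.03 (SE 0.08).

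Under the term for signalling by the VEGF receptor, 53 genes were tested, 6 rose and 5 fell (20.8%, beside 15.3% of all genes). PXN, the focal adhesion protein paxillin, rose from 18.2 ± 0.685 to 28.6 ± 2.78 FPKM. ITGB3, the integrin β3 chain, fell from 30.3 ± 4.40 to 17.9 ± 2.08 FPKM, and MAPKAPK3, a kinase downstream of p38, fell from 30.4 ± 1.83 to 18.6 ± 0.529 FPKM. Under the term for signalling by the PDGF receptor, 25 genes were tested, 3 rose and 3 fell (24%), among them the phosphatase PTPN11, which fell from 71.2 ± 2.32 to 56.7 ± 0.672 FPKM. The adjusted p-values of the 6 genes named in these 2 paragraphs other than ID1 lay between 0.000209 and 0.0209 by edgeR.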
